A study of Mus musculus with 8 samples.

Results

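The genes described here are Tcf7, Lef1, Ccr7, Il7r, S1pr1, Klf2 and Slamf6, 7 of the 32285 genes in a single-cell count table of immune cells that had infiltrated beta cell grafts in mice. They were chosen by name, as genes of T cell memory and trafficking. No value in the table set the choice, but earlier results of these data were known when it was made. Their levels were taken per graft and cell type, and within CD4 and CD8 T cells per cluster, from the cell types and clusters that the depositors had assigned. A level is the number of unique molecular identifiers (UMIs, which mark single captured transcripts) of a gene per 1000000 UMIs of the same cells of the same graft, written as CPM. Because the assay reads transcript 3' ends, levels are compared here for 1 gene across cells and not between genes.

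The grafts were NIT-1 cells, an insulin-producing line of NOD mouse origin, injected under the skin of NOD.scid mice, an immunodeficient strain without mature T or B cells of its own, which then received splenocytes of recently diabetic NOD mice. The 4 groups were WT day 10, WT day 17, Rnls mutant day 10 and Rnls mutant day 17, where WT is the unmodified line, Rnls mutant is the same line with a mutated Renalase gene, and the day is counted from the transfer of splenocytes. All 4 groups received the same kind of splenocytes, so the genotype is that of the grafted beta cells and not of the T cells. Each group was 4 grafts marked by hashtag antibodies, pooled and run as 1 library of live CD45+ cells, so a group and its library cannot be told apart. WT and Rnls mutant cells were placed on the 2 flanks of a host, and the study calls its replicates paired, but no source used here ties a hashtag number to a mouse, so the tests are unpaired and a fit with the hashtag number as a block is an alternative. The table held 22441 cells from 16 grafts, among them 4876 CD4 T cells (57 to 614 per graft), 3449 CD8 T cells (18 to 443) and 505 regulatory T cells, which were labelled Treg and kept apart from the CD4 T cells.

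Tcf7 encodes TCF1 and Lef1 encodes LEF1, related DNA-binding proteins that work with beta-catenin and maintain naive and memory T cells. Il7r encodes the alpha chain of the receptor for interleukin 7, a survival cytokine of resting T cells, and Slamf6 encodes a SLAM family receptor that binds itself on neighbouring cells and is known from TCF1-bearing progenitor-like T cells. Ccr7 encodes the chemokine receptor that brings T cells and dendritic cells to lymph nodes, S1pr1 encodes the receptor for sphingosine 1-phosphate that lets lymphocytes leave tissues, and Klf2 encodes a zinc finger factor that is known to switch on S1pr1 in resting T cells.

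The genes lie apart on the mouse genome (GRCm38, GENCODE vM21). Tcf7 is on chromosome 11 at 52252371 to 52283014 on the minus strand, Lef1 on chromosome 3 at 131110471 to 131224356 on the plus strand and Ccr7 on chromosome 11 at 99144196 to 99155077 on the minus strand. Il7r is on chromosome 15 at 9505788 to 9530176 on the minus strand and S1pr1 on chromosome 3 at 115710433 to 115715072 on the minus strand. Klf2 is on chromosome 8 at 72319033 to 72321656 on the plus strand and Slamf6 on chromosome 1 at 171917515 to 171953170 on the plus strand. In the annotation Tcf7 overlaps Gm26551 on the same strand and A630014C17Rik on the opposite strand, Lef1 overlaps Gm42449 on the same strand and Gm43352 on the opposite strand, and Slamf6 overlaps Gm37065 on the opposite strand, and how the counting split such reads is not given in the sources used here.

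Promoters are shown for the 3 transcription factor genes, each of which rose with time in some of the T cell comparisons that follow. In CD4 and CD8 T cells Lef1 rose in both genotypes and Tcf7 passed the test only in Rnls mutant grafts. Klf2 did not pass in Rnls mutant CD8 T cells and fell in Rnls mutant regulatory T cells. RefSeq promoter windows (GRCm38.p6, 250 bases before to 50 after a transcript start) were on hand for 5 of the 7 genes and 9 starts, all but Ccr7 and S1pr1. The Klf2 stretch is chr8:72318812-72319061 on the plus strand, the Lef1 stretch is chr3:131110047-131110296 on the plus strand, and the Tcf7 stretch, from its more downstream listed start, is chr11:52282588-52282745 on the minus strand. Each is printed 5′ to 3′ along its gene, with the matches to the searched motifs in capitals.
Klf2: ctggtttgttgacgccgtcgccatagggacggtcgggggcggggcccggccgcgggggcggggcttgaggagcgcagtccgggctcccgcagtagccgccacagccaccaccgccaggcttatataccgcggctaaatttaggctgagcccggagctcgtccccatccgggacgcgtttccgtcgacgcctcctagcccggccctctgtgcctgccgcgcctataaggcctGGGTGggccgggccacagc
Lef1: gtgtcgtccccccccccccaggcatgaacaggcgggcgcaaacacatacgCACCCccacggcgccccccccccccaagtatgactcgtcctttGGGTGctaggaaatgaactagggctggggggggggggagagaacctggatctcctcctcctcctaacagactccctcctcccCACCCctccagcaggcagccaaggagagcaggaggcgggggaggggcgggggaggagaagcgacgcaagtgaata
Tcf7: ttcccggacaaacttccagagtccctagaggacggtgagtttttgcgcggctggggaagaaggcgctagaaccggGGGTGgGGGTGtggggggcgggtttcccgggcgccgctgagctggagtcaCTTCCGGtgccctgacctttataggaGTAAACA
The capitals of 5 letters are the KLF motif, searched as CACCC, on either strand. In Tcf7 the first capitals of 7 letters are the reverse complement of the ETS motif, searched as CCGGAAG. The last capitals, at the end of the stretch, are the reverse complement of the FOXO motif, searched as TGTTTAC. Counted from the start site, the KLF match in Klf2 begins at base -19, those in Lef1 at -200, -157 and -75, and those in Tcf7 at -75 and -69. The ETS match in Tcf7 begins at -25 and the FOXO match at 2. The window of the other listed Tcf7 start, not printed here, held KLF matches at -236 and -195 from its own start. It held no ETS or FOXO match. The short KLF motif was in 57.5% of all 32851 promoter windows on either strand, against 8.86% for the ETS motif and 3.65% for the FOXO motif. For TCF and LEF proteins the letters CTTTGAA, found in 5.14% of windows, and the variant that ends in GAT in place of GAA, found in 3.73%, were searched in the same way in all 9 windows. No window of these genes held either TCF/LEF motif, and those of Il7r and Slamf6 held no match of any kind.

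The cell labels were checked against marker genes before the members were read. Of the CD8 T cells of WT day 10 and Rnls mutant day 10 grafts, 5.57% and 4.81% held a UMI of Cd4 or Cd40lg, markers of CD4 T cells, against 24.0% and 18.1% at day 17. The share was 55.6% in WT day 17 graft 3, where the label covered only 18 cells, and 34.3% in Rnls mutant day 17 graft 3. Cd4 rose among the cells labelled CD8 T cells by 2.45 on the log2 scale in WT grafts (adjusted p = 0.00050) and by 3.06 in Rnls mutant grafts (adjusted p = 3.8e-05). Among cells labelled CD4 T cells, 4.88% held a UMI of Cd8a or Cd8b1. Results in CD8 T cells are therefore given with and without cells that held a UMI of the other lineage's markers, an alternative chosen after the data were seen.

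Macrophage transcripts were the other feature that moved with the groups. The summed level of 10 macrophage and monocyte markers in CD4 T cells ranged over 357 to 385 CPM in WT day 10 grafts, 428 to 522 in WT day 17, 238 to 287 in Rnls mutant day 10 and 1297 to 1525 in Rnls mutant day 17. Among CD8 T cells the Rnls mutant day 17 grafts held 1319 to 1716, against 248 to 824 in the other 12 grafts. Summed levels in CD4 T cells were 1.38% to 4.09% of those in the macrophages of the same group. Carried over at that rate, macrophage Klf2 would give 9.42 to 25.9 of the 130 to 339 CPM of Klf2 in CD4 T cells, and 11.5 to 28.2 of the 107 to 311 in CD8 T cells. For Il7r the same product was at most 2.29, while Tcf7 and Lef1 averaged 0.140 and 0.532 CPM in macrophages. Whether these genes were carried over at the rate of the markers was not tested. Median UMIs per CD4 T cell were 2696 in WT day 10, 4336 in WT day 17, 2998 in Rnls mutant day 10 and 2298 in Rnls mutant day 17. Markers of beta cells were at 0 in CD4 T cells of every group.

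Across cell types the members differed in where they were highest (mean ± SD over grafts with at least 10 cells of the type). Tcf7 averaged 93.7 ± 54.4 CPM in CD4 T cells, 80.1 ± 40.3 in NK cells and 75.4 ± 35.2 in CD8 T cells (each n = 16), 3 levels that lay within each other's SD. Below them came ILC-1 with 22.1 ± 26.9 (n = 8) and regulatory T cells with 15.8 ± 22.2 (n = 14). After thinning each cell to 1000 UMIs, 8.31% of CD4 T cells, 5.77% of CD8 T cells and 1.58% of regulatory T cells held a Tcf7 UMI, against none of 7179 macrophages. Unthinned, these shares were 18.5%, 12.7%, 2.77% and 0.0557%, at median depths of 2823.5, 2555.0, 2444.0 and 4719.0 UMIs per cell.

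Lef1 was led by CD4 T cells at 320 ± 167 CPM, followed by CD8 T cells at 191 ± 77.1, regulatory T cells at 165 ± 66.4, progenitor cells (labelled Stem-Progenitor) at 102 ± 33.5 and NK cells at 44.3 ± 17.3. CD8 and regulatory T cells lay within each other's SD. For Tcf7, by contrast, regulatory T cells lay below CD8 T cells, at 15.8 ± 22.2 against 75.4 ± 35.2. Il7r was at 627 ± 209 in CD4 T cells, 597 ± 167 in regulatory T cells and 482 ± 109 in CD8 T cells. Of these, CD4 and regulatory T cells lay within each other's SD. Il7r then dropped to 146 ± 75.1 in dendritic cells, 146 ± 91.2 in ILC-1 and 83.3 ± 45.9 in macrophages. S1pr1 averaged 382 ± 168 in regulatory T cells, 287 ± 80.1 in CD4 T cells and 194 ± 77.0 in CD8 T cells, and 15.7 ± 15.4 in NK cells. Slamf6 stood at 308 ± 94.1 in regulatory T cells, above CD4 T cells at 131 ± 50.7 and CD8 T cells at 96.3 ± 23.7.

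Ccr7 and Klf2 had other orders. Ccr7 averaged 471 ± 298 CPM in dendritic cells, in which it marks cells that migrate to lymph nodes, against 141 ± 79.3 in regulatory T cells, 65.0 ± 50.5 in CD4 T cells, 58.9 ± 50.0 in NK cells and 33.0 ± 30.6 in CD8 T cells. Klf2 was at 829 ± 410 in granulocytes, 652 ± 245 in macrophages and 405 ± 204 in regulatory T cells, with dendritic cells, monocytes, NK cells, CD4 T cells and CD8 T cells between 227 and 337. Those 5 means lay within each other's SD. In thinned cells, 35.9% of macrophages and 17.6% of CD4 T cells held a Klf2 UMI, against 67.4% and 34.6% unthinned.

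**Figure D1:**
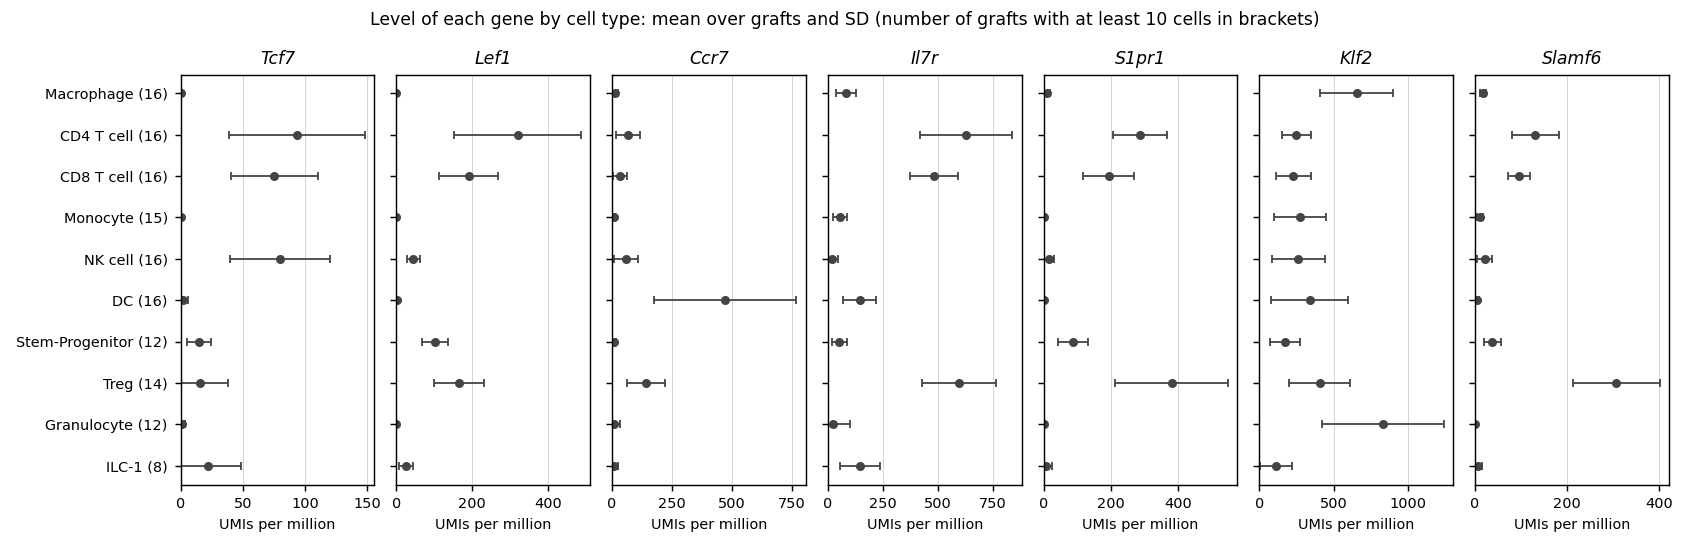
Level of each gene (CPM) by cell type, with the mean over grafts as a point and the SD over grafts as a bar. CD4 T cells lead for Tcf7, Lef1 and Il7r, regulatory T cells for S1pr1 and Slamf6, dendritic cells for Ccr7 at 471, and granulocytes and macrophages for Klf2 at 829 and 652.

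In CD4 T cells of WT grafts, Lef1 and Klf2 rose from day 10 to day 17 and S1pr1 fell. These 3 calls among 7 genes (2 higher, 1 lower) stand beside 20.7% of all 7858 genes tested that were called (10.6% higher and 10.1% lower), and the median log2 change was 0.58 over the 7 genes and 0.03 over all genes. Every adjusted p given here comes from quasi-likelihood tests in edgeR, adjusted by Benjamini and Hochberg's method over all genes of the fit, with 0.05 as the threshold. Klf2 was at 109, 139, 130 and 142 CPM in WT day 10 grafts 1 to 4 and at 301, 346, 254 and 378 in WT day 17 grafts 1 to 4. All day 17 grafts lay above all day 10 grafts, and the log2 change was 1.11 (SE 0.17, adjusted p = 6.9e-05). Lef1 read 147, 251, 176 and 168 at day 10 and 654, 293, 320 and 411 at day 17, again without overlap. Its log2 change was 1.05 (SE 0.26, adjusted p = 0.0061). Genes with all WT day 17 grafts above all WT day 10 grafts made up 15.1% of those tested, and Klf2 and Lef1 were the 2 members among them.

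S1pr1, the egress receptor, went the other way in WT grafts. It was at 273, 370, 307 and 358 CPM at day 10 and at 190, 268, 84.1 and 310 at day 17. The groups overlapped, with WT day 17 graft 3 lowest, and the log2 change was -0.85 (SE 0.26, adjusted p = 0.020). Without WT day 10 graft 2 or WT day 17 graft 1 this call was lost, and with 1 graft left out at a time its adjusted p reached 0.074. Without WT day 17 graft 1, the graft with the most CD4 T cells of its group, 1 of the 7 genes was called, Klf2, and without WT day 17 graft 3 all 7 were. The other 4 genes did not pass the test in WT CD4 T cells. Ccr7 was at 55.6, 24.3, 34.0 and 29.0 at day 10 and at 72.1, 49.5, 30.0 and 212 at day 17, with WT day 17 graft 4 far above the rest, a log2 difference of 1.13 (SE 0.41, adjusted p = 0.051). Differences for Slamf6 (0.58, adjusted p = 0.079), Tcf7 (0.49, adjusted p = 0.28) and Il7r (0.41, adjusted p = 0.19) were smaller.

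In CD4 T cells of Rnls mutant grafts, 6 of the 7 genes rose from day 10 to day 17 and none fell, beside 22.5% of all genes called (12.1% higher, 10.4% lower). The median log2 change was 0.70 over the 7 genes and -0.00 over all genes. Tcf7 rose from 62.5, 55.1, 37.3 and 61.0 CPM in Rnls mutant day 10 grafts 1 to 4 to 177, 155, 118 and 102 in Rnls mutant day 17 grafts 1 to 4. The groups did not overlap, and the log2 change was 1.36 (SE 0.29, adjusted p = 0.0021). Ccr7 rose from 63.7, 23.1, 36.3 and 34.4 to 95.6, 80.8, 144 and 55.8, with an overlap of Rnls mutant day 10 graft 1 and day 17 graft 4, and a log2 change of 1.32 (SE 0.37, adjusted p = 0.014). Lef1 read 158, 285, 204 and 245 at day 10 and 689, 499, 344 and 270 at day 17. Its groups overlapped by 1 graft on each side, and the log2 change was 0.97 (SE 0.26, adjusted p = 0.0092).

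Slamf6 was at 82.5, 103, 74.0 and 112 CPM in Rnls mutant day 10 CD4 T cells and at 162, 126, 182 and 181 at day 17, a log2 change of 0.70 (SE 0.23, adjusted p = 0.032) without overlap. Klf2 read 163, 179, 257 and 234 at day 10 and 341, 394, 282 and 339 at day 17, a log2 change of 0.60 (SE 0.16, adjusted p = 0.0088), also without overlap. Il7r passed the threshold narrowly, from 360, 522, 627 and 547 to 1085, 816, 632 and 735, with a log2 change of 0.59 (SE 0.21, adjusted p = 0.0499). Its groups touched without overlapping, at 627 and 632. S1pr1 did not pass in Rnls mutant grafts. It was at 312, 299, 338 and 293 at day 10 and at 400, 346, 180 and 256 at day 17, so that the day 17 grafts lay on both sides of the day 10 grafts (log2 difference -0.12, SE 0.24, adjusted p = 0.76). Of the 7 genes, 4 had all day 17 grafts above all day 10 grafts, a pattern that 15.1% of all genes showed.

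With 1 of the 16 grafts left out at a time, Tcf7 and Klf2 kept their call in all 16 fits of Rnls mutant CD4 T cells, Lef1 in 15, Ccr7 in 14, Slamf6 in 11 and Il7r in 4. The number called was 3 without Rnls mutant day 17 graft 1, where Lef1, Slamf6 and Il7r were lost, and Il7r was also lost with the replicate block (adjusted p = 0.054). When cells with a UMI of C1qa, C1qb, C1qc or Apoe were left out, which removed 60.1% of the Rnls mutant day 17 CD4 T cells, 4 genes were called in Rnls mutant grafts and 3 in WT grafts. Klf2 then differed by 0.43 on the log2 scale in Rnls mutant grafts (adjusted p = 0.12) and rose by 1.05 in WT grafts (adjusted p = 0.00041), while Tcf7 in Rnls mutant grafts rose by 1.35 (adjusted p = 0.0072). Immediate early genes, which respond quickly to stimulation and to tissue handling, also rose in CD4 T cells, 13 of 14 in WT grafts and 10 of 14 in Rnls mutant grafts. Their summed level was 3431 to 4322 CPM in WT day 10 grafts and 6566 to 9354 in WT day 17, and 4109 to 5374 in Rnls mutant day 10 and 5737 to 7801 in Rnls mutant day 17. Their part in the changes of Klf2 and the other genes was not tested.

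**Figure D2:**
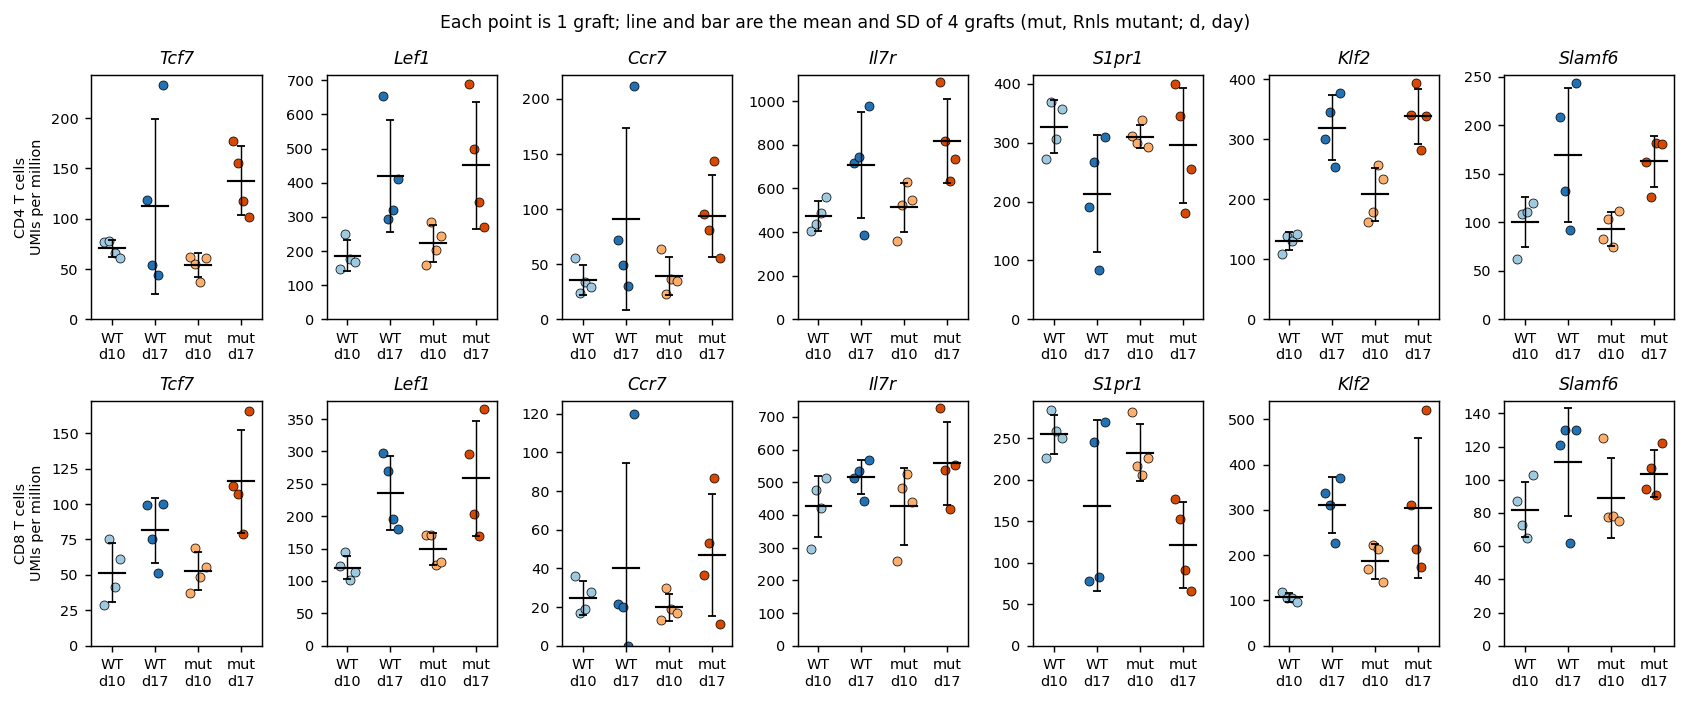
Level of each gene per graft (CPM) in CD4 and CD8 T cells, by group, with 4 grafts as points and the group mean and SD. In CD4 T cells Klf2 separates day 17 from day 10 in both genotypes, Tcf7 in Rnls mutant grafts, and S1pr1 is lowest in WT day 17 graft 3 at 84.1.

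Among CD8 T cells of WT grafts the same 3 genes were called in the same directions as among CD4 T cells, Klf2 and Lef1 higher and S1pr1 lower at day 17. The 3 calls stand beside 11.7% of 6379 genes called (5.41% higher, 6.32% lower). Klf2 was at 119, 105, 106 and 96.6 CPM in WT day 10 grafts 1 to 4 and at 338, 310, 227 and 370 in WT day 17 grafts 1 to 4. The groups were far apart relative to their spread, and the log2 change was 1.41 (SE 0.21, adjusted p = 4.2e-05). Lef1 read 123, 145, 101 and 114 at day 10 and 297, 270, 196 and 180 at day 17, a log2 change of 0.90 (SE 0.19, adjusted p = 0.0023). It too did not overlap, and 9.77% of all genes had all WT day 17 grafts above all WT day 10 grafts. S1pr1 was at 226, 284, 258 and 250 at day 10 and split at day 17 into 77.4 and 82.6 in grafts 1 and 3 and 245 and 270 in grafts 2 and 4, with a log2 change of -0.84 (SE 0.26, adjusted p = 0.029).

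Without cells that held Cd4 or Cd40lg, Klf2 and Lef1 in WT CD8 T cells rose by 1.64 (adjusted p = 2.1e-06) and 1.10 (adjusted p = 0.00042), and the S1pr1 difference was -0.55 and lost its call (adjusted p = 0.22). S1pr1 was called in 11 of 16 fits with 1 graft left out, and lost its call without WT day 10 graft 2, 3 or 4 or WT day 17 graft 1 or 3. Leaving out WT day 17 graft 1, which held 81 of the 167 CD8 T cells of its group, left 1 call, Klf2. The other 4 genes did not pass the test in WT CD8 T cells. Their log2 differences were 0.57 for Tcf7 (adjusted p = 0.25), 0.35 for Slamf6 (adjusted p = 0.34), 0.25 for Ccr7 (adjusted p = 0.81) and 0.13 for Il7r (adjusted p = 0.74). Ccr7 ranged from no UMI in WT day 17 graft 3 to 120 CPM in graft 4.

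In CD8 T cells of Rnls mutant grafts, Tcf7, Lef1 and Ccr7 rose and S1pr1 fell, 4 calls beside 10.5% of all genes (5.89% higher, 4.56% lower). Tcf7 went from 37.3, 69.2, 48.2 and 55.6 CPM in Rnls mutant day 10 grafts 1 to 4 to 113, 107, 78.9 and 166 in Rnls mutant day 17 grafts 1 to 4, a log2 change of 0.99 (SE 0.27, adjusted p = 0.018). S1pr1 fell from 282, 216, 205 and 226 to 177, 153, 90.8 and 66.4, a log2 change of -0.87 (SE 0.24, adjusted p = 0.021). Neither gene overlapped between days, a separation shown by 9.67% of all genes upward and 6.13% downward. Lef1 rose from 171, 171, 125 and 130 to 296, 203, 170 and 365 (log2 change 0.65, SE 0.18, adjusted p = 0.021), with day 17 graft 3 just below the highest day 10 grafts. Ccr7 rose from 13.5, 29.7, 19.1 and 16.9 to 36.6, 53.3, 86.8 and 11.1 (log2 change 1.36, SE 0.43, adjusted p = 0.041), with day 17 graft 4 below every day 10 graft. Klf2 did not pass here. It was at 169, 223, 213 and 141 at day 10 and 311, 213, 174 and 520 at day 17, a log2 difference of 0.49 (SE 0.20, adjusted p = 0.12), and Il7r (0.32, adjusted p = 0.34) and Slamf6 (0.09, adjusted p = 0.84) did not pass either.

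The 4 calls in Rnls mutant CD8 T cells held without cells carrying Cd4 or Cd40lg, with log2 changes of 1.07 for Tcf7, 0.71 for Lef1, 1.55 for Ccr7 and -0.81 for S1pr1. None held when cells with a UMI of a macrophage gene were left out, which removed 60.4% of the Rnls mutant day 17 CD8 T cells. The differences were then 0.79 for Tcf7 (adjusted p = 0.19), 0.40 for Lef1 (adjusted p = 0.36), 0.31 for Ccr7 (adjusted p = 0.88) and -0.83 for S1pr1 (adjusted p = 0.12). With 1 graft left out at a time, S1pr1 kept its call in 14 of 16 fits, Tcf7 in 13, Lef1 in 12 and Ccr7 in 8. Without Rnls mutant day 17 graft 1 or graft 4, 1 of the 4 calls was left. Immediate early genes rose in 9 of 14 cases in WT and in 10 of 14 in Rnls mutant CD8 T cells.

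**Figure D3:**
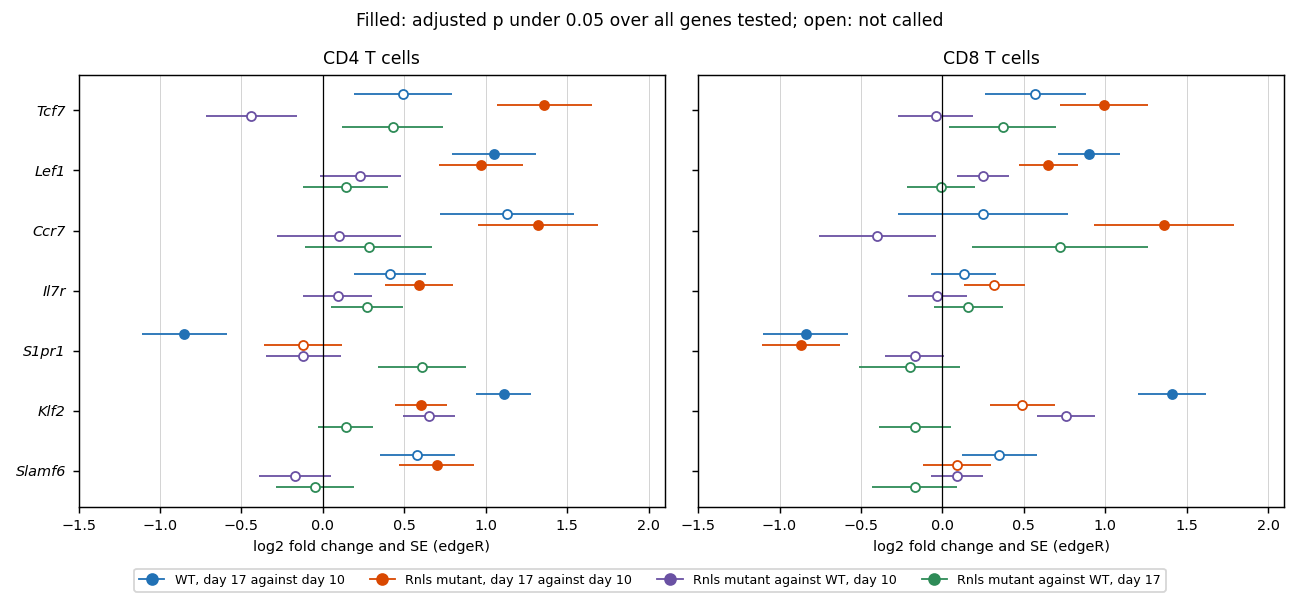
Log2 change from day 10 to day 17 of each gene with its SE, in CD4 and CD8 T cells of WT and Rnls mutant grafts. Log2 differences between Rnls mutant and WT grafts at day 10 and at day 17 are drawn in the same panels. Filled points passed an adjusted p of 0.05. Over time, S1pr1 lies at or below -0.84 in 3 of the 4 comparisons and at -0.12 in CD4 T cells of Rnls mutant grafts. Klf2 lies between 0.49 and 1.41 over time.

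Whether the change with time differed between genotypes was tested directly, as the difference of the 2 changes. In CD4 T cells this test called none of the 7 genes (3 at an unadjusted p under 0.05, none with DESeq2), beside 0.636% of all genes. The closest were Tcf7, with a change larger by 0.87 (SE 0.42, adjusted p = 0.57) in Rnls mutant grafts, S1pr1 with 0.73 (SE 0.35, adjusted p = 0.57) and Klf2 with -0.50 (SE 0.23, adjusted p = 0.55). Among CD8 T cells none was called (1 at an unadjusted p under 0.05, none with DESeq2 and 1 with the replicate block), beside 0.658% of all genes, and Klf2 was closest at -0.93 (SE 0.29, adjusted p = 0.18). Thus the gain of Tcf7 calls and the loss of the S1pr1 call in Rnls mutant CD4 T cells were not shown to differ from WT.

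Between genotypes on the same day, Klf2 at day 10 was the clearest difference. CD4 T cells of WT day 10 grafts held 109 to 142 CPM and those of Rnls mutant day 10 grafts 163 to 257, and CD8 T cells 96.6 to 119 and 141 to 223. The genotypes did not overlap in either cell type, a pattern that 4.85% of all genes showed upward in CD4 T cells and 4.15% in CD8 T cells. The log2 differences were 0.65 (SE 0.16, adjusted p = 0.096) and 0.76 (SE 0.18, adjusted p = 0.065), so that neither passed the threshold. With the hashtag number as a replicate block they passed, at 0.63 (SE 0.12, adjusted p = 0.011) and 0.76 (SE 0.13, adjusted p = 0.0018). The block rests on a pairing by number that no source used here gives. In day 10 CD4 T cells, deviations from group means correlated at 0.019 between grafts numbered 3 and at -0.00276 between grafts numbered 4. Across these 2 numbers they correlated at 0.134 and 0.142. Klf2 passed in 5 of 9 alternative settings, the block among them, in CD4 T cells, with adjusted p from 0.0015 to 0.12, and in 8 of 9 in CD8 T cells, with adjusted p from 7.7e-05 to 0.060. With 1 graft left out it passed in 2 of 16 fits in CD4 and 6 of 16 in CD8 T cells. Macrophage marker sums were lower in Rnls mutant day 10 CD4 T cells, at 238 to 287 CPM, than in those of WT day 10, at 357 to 385. Klf2 was also 0.84 higher in NK cells (adjusted p = 0.93) and 0.69 higher in regulatory T cells (adjusted p = 0.41), with overlapping grafts.

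The other members had adjusted p of 0.49 or more between genotypes in CD4 and CD8 T cells. At day 10 none of the 7 genes was called in CD4 or CD8 T cells (1 in each at an unadjusted p under 0.05 and 1 in each with DESeq2, Klf2), beside 0.229% and 0.314% of all genes. At day 17 none was called in either (1 and 0 at an unadjusted p under 0.05, none with DESeq2), beside 0.433% and 0.376%. S1pr1 in day 17 CD4 T cells was 0.61 higher in Rnls mutant grafts (SE 0.27, adjusted p = 0.49), at 180 to 400 CPM against 84.1 to 310. Klf2 at day 17 was 282 to 394 in Rnls mutant and 254 to 378 in WT CD4 T cells, a log2 difference of 0.14 (SE 0.17, adjusted p = 0.86).

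**Figure D4:**
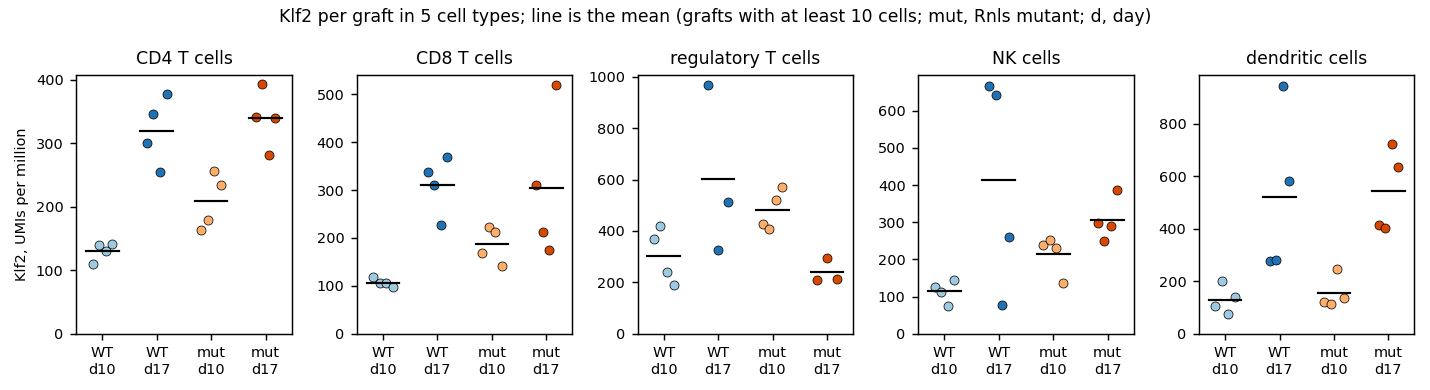
Klf2 level (CPM) per graft and group in the lymphocyte types and dendritic cells, with 4 grafts per group except in regulatory T cells, where 3 grafts per genotype had 10 cells at day 17. CD4 and CD8 T cells of WT day 10 grafts lie below those of Rnls mutant day 10 grafts, and regulatory T cells of Rnls mutant grafts lie at 407 to 572 at day 10 and at 208 to 294 at day 17.

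The deposited clusters changed their shares with time, most of all among CD4 T cells. Cluster 0 held 61.8% of WT and 54.3% of Rnls mutant CD4 T cells at day 10 and 8.16% and 6.39% at day 17, while cluster 8 went from 4.54% and 5.19% to 74.5% and 69.8%. Cluster 7 held 28.4% and 36.1% at day 10 and 13.6% and 17.9% at day 17. The genes from which the depositors made the clusters are not given in the sources used here and may include the members. Levels per cluster are therefore a description, and averages over grafts mix the days in unequal parts. Tcf7 averaged 67.2 ± 24.7 CPM in cluster 0 (n = 12 grafts), 59.3 ± 34.9 in cluster 7 (n = 13) and 119 ± 64.7 in cluster 8 (n = 15), and Lef1 averaged 198 ± 66.1, 307 ± 180 and 403 ± 186. Klf2 averaged 137 ± 48.6, 270 ± 143 and 457 ± 347, an order that did not hold within a day. In Rnls mutant day 17 grafts it was at 330 to 491 in cluster 7 and at 299 to 396 in cluster 8, and in WT day 17 graft 1 at 460 and 287. At day 10 cluster 8 gave 50.6 to 1277 in WT and 180 to 1012 in Rnls mutant grafts, from 13 to 43 cells per graft. Il7r was higher in cluster 7, at 879 ± 298, than in cluster 8 at 642 ± 209 and cluster 0 at 313 ± 154, and the group means kept this order in all 4 groups. S1pr1 averaged 237 ± 117, 328 ± 74.7 and 286 ± 123.

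With the cluster shares held at their average over all grafts, most increases in CD4 T cells became smaller. The log2 ratio of the mean levels of Klf2 at day 17 over day 10 went from 1.30 as measured to 0.60 in WT grafts and from 0.70 to -0.18 in Rnls mutant grafts. For Tcf7 the ratio was 0.67 as measured and 0.36 at fixed shares in WT, and 1.36 and 0.52 in Rnls mutant grafts. Lef1 gave 1.18 and 0.71 in WT and 1.01 and 0.39 in Rnls mutant grafts. Slamf6 in Rnls mutant grafts gave 0.81 as measured and 0.09 at fixed shares, and Il7r 0.67 and 0.17. Ccr7 in Rnls mutant grafts moved little, with 1.26 and 1.07, as did S1pr1 in WT grafts, with -0.62 and -0.60. These ratios carry no test, and they rest on few cells of some clusters, with 39 and 65 WT day 17 cells in clusters 0 and 7 and 71 WT and 100 Rnls mutant day 10 cells in cluster 8. The fixed-share value of Klf2 in Rnls mutant grafts draws on those day 10 cells of cluster 8, at 773, 180, 1012 and 775 CPM in 13, 26, 18 and 43 cells of grafts 1 to 4, against 299 to 396 at day 17. In cluster 7 of the same grafts Klf2 was at 153 to 236 at day 10 and at 330 to 491 at day 17.

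CD8 T cells kept more of their cluster makeup. Cluster 3 held 49.4% and 48.4% of WT and Rnls mutant CD8 T cells at day 10 and 53.3% and 69.4% at day 17, and cluster 9 held 31.6% and 26.2% and then 34.1% and 22.7%. Tcf7 ranged most among these clusters, from 90.9 ± 40.6 CPM in cluster 3 (n = 16) and 58.8 ± 34.7 in cluster 9 (n = 14) to 4.06 ± 5.79 in cluster 16 (n = 8, all of day 10). Cluster 16 also had the lowest Il7r of the clusters with grafts of at least 10 cells, 180 ± 58.4 against 363 to 676 in the others, while its S1pr1 at 229 ± 45.4 was within the SD of the others. Cluster 16 made up 12.0% and 13.7% of CD8 T cells at day 10 and 6.59% and 2.20% at day 17. At fixed shares the log2 day ratio of Klf2 was 1.73 in WT grafts (1.54 as measured) and 0.72 in Rnls mutant grafts (0.71 as measured). For Lef1 it was 1.06 and 0.84 (0.96 and 0.79 as measured), for S1pr1 -0.59 and -0.77 (-0.59 and -0.93), and for Tcf7 0.65 and 0.94 (0.66 and 1.14).

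**Figure D5:**
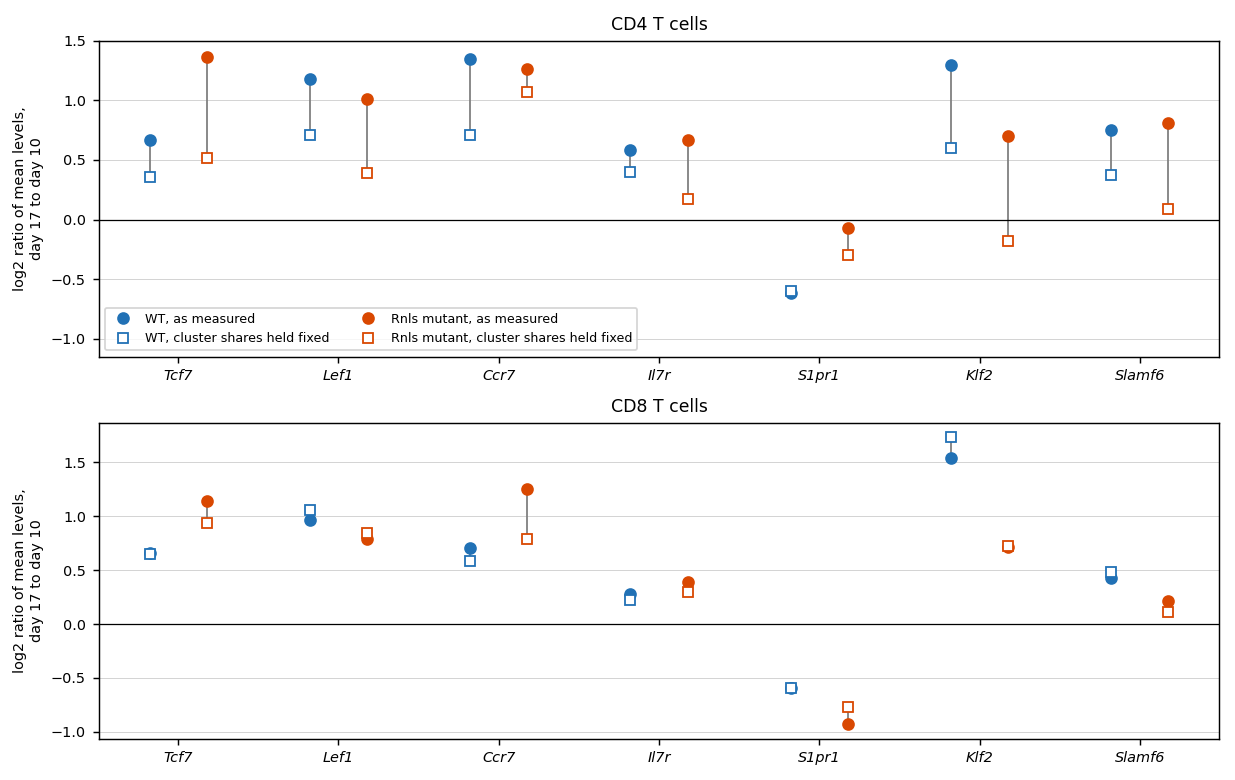
Log2 ratio of mean levels, day 17 over day 10, for each gene in CD4 and CD8 T cells, as measured and with cluster shares held at their average over all grafts, by genotype. In Rnls mutant grafts Tcf7 moves from 1.36 to 0.52 in CD4 T cells and from 1.14 to 0.94 in CD8 T cells, and Klf2 in CD4 T cells moves to -0.18, a value that draws on 100 day 10 cells of cluster 8.

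Only 2 clusters had at least 3 grafts with 10 cells in every group, and the same test was run within each. In cluster 8 of the CD4 T cells none of the 7 genes was called in any comparison. At an unadjusted p under 0.05, 1 was counted in WT grafts over time and 3 in Rnls mutant grafts, beside 0.891% and 1.66% of 3366 genes called, and DESeq2 also called none of the 7. Ccr7 had the largest difference, 1.95 in Rnls mutant grafts (SE 0.64, adjusted p = 0.14). Within cluster 3 of the CD8 T cells, Klf2 rose in WT grafts by 1.28 (SE 0.30, adjusted p = 0.0071) and Lef1 by 0.81 (SE 0.22, adjusted p = 0.019), 2 calls beside 7.45% of 4991 genes. The means went from 87.8 ± 22.7 to 213 ± 80.8 CPM for Klf2 and from 139 ± 20.9 to 241 ± 60.3 for Lef1 (n = 4 each). In Rnls mutant grafts S1pr1 fell there by 0.83 on the log2 scale (SE 0.24, adjusted p = 0.035), from 229 ± 49.0 to 122 ± 45.4 (n = 4 each), 1 call beside 6.29% of genes, and this call was lost when cells with a macrophage, CD4 lineage or doublet signal were left out. WT grafts 3 and 4 at day 17 had 11 and 10 cells in this cluster.

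Outside the conventional T cells, 5 of the 7 calls were of Klf2. Tcf7 was too low to be tested in regulatory T cells, and the members tested were Tcf7, Ccr7 and Klf2 in NK cells and Ccr7, Il7r and Klf2 in dendritic cells. In regulatory T cells Klf2 stood at 368, 419, 241 and 189 CPM in WT day 10 grafts and at 970, 325 and 512 in the 3 WT day 17 grafts with at least 10 cells. Rnls mutant grafts went the other way, from 429, 407, 521 and 572 at day 10 to 208, 294 and 214 in 3 day 17 grafts. The fall in Rnls mutant grafts passed the test (log2 change -1.12, SE 0.32, adjusted p = 0.035), 1 call among 6 members tested beside 7.25% of 2331 genes. The difference between the 2 changes passed as well, at -1.93 (SE 0.44, adjusted p = 0.026), beside 1.12% of genes. The WT difference of 0.81 did not pass (adjusted p = 0.094), and none of the 6 was called in WT grafts (3 at an unadjusted p under 0.05), beside 8.54% of genes. With the replicate block the difference was -2.11 and not called (adjusted p = 0.078). Other markers moved with the groups in the same cells. The summed level of 6 cycling cell markers was 116 to 518 CPM in WT day 10 grafts and 75.1 to 98.5 in WT day 17, and 33.6 to 81.4 in Rnls mutant day 10 and 150 to 580 in Rnls mutant day 17, opposite in direction to Klf2 in both genotypes. Summed macrophage and monocyte markers were at 494 to 631 in WT day 10, 651 to 1064 in WT day 17, 407 to 534 in Rnls mutant day 10 and 1195 to 1913 in Rnls mutant day 17 grafts. Their part in the Klf2 result was not tested. These grafts held 14 to 42 regulatory T cells each at day 17, and each of the 2 calls was lost in 5 of 14 fits that left out 1 graft. No member was called in any comparison without Rnls mutant day 10 graft 3, Rnls mutant day 17 graft 1 or Rnls mutant day 17 graft 3. With DESeq2, 1 member was called in regulatory T cells over all 5 comparisons, against 2 with edgeR.

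In NK cells Klf2 rose in WT grafts from 125, 113, 74.7 and 145 to 668, 643, 78.4 and 261 CPM (log2 change 1.82, SE 0.35, adjusted p = 0.0016), with WT day 17 graft 3 at the day 10 level. Tcf7, which NK cells also use in their development, fell from 92.9, 113, 97.6 and 84.7 to 77.1, 10.4, 28.5 and 57.9 (log2 change -1.47, SE 0.43, adjusted p = 0.032). These were 2 calls among 3 members tested, beside 9.07% of 3263 genes. Rnls mutant NK cells gave no call (1 member at an unadjusted p under 0.05), beside 2.67% of genes. In dendritic cells Klf2 rose in both genotypes, with 73.6 to 200 in WT day 10, 278 to 943 in WT day 17, 114 to 246 in Rnls mutant day 10 and 404 to 723 in Rnls mutant day 17 grafts and log2 changes of 2.04 (SE 0.39, adjusted p = 0.0027) and 1.80 (SE 0.40, adjusted p = 0.0057). Ccr7 fell in Rnls mutant dendritic cells from 999, 693, 318 and 901 to 327, 185, 214 and 186 (log2 change -1.60, SE 0.51, adjusted p = 0.040), with 1 day 10 graft inside the day 17 range. The call on Ccr7 held in 8 of 16 fits with 1 graft left out, that on Tcf7 in NK cells in 12 of 16, and those on Klf2 in NK and dendritic cells in all 16. DESeq2 called 2 members in NK cells over all 5 comparisons, the number edgeR called. The dendritic cell calls were 1 of 3 members tested in WT grafts, beside 10.2% of 5700 genes, and 2 of 3 in Rnls mutant grafts, beside 14.6%.

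Other genes of the same pathways are given as counts of those tested, with up to 3 named genes in each direction. Their counts stand beside the shares of all genes called over time, in CD4 T cells 10.6% higher and 10.1% lower in WT and 12.1% and 10.4% in Rnls mutant grafts, and in CD8 T cells 5.41% and 6.32%, and 5.89% and 4.56%. Of 19 other naive and memory T cell genes tested in CD4 T cells, 7 rose and 1 fell in WT grafts and 8 rose and 1 fell in Rnls mutant grafts, with median log2 changes of 0.23 and 0.45 against 0.03 and -0.00 over all genes. The anti-apoptotic Bcl2 rose by 1.33 and the costimulatory receptor Cd28 by 0.73 in WT grafts, and the repressors Bach2 and Bcl6 rose by 1.11 and 1.15 in Rnls mutant grafts. Myb, which supports stem-like T cells, fell by 2.96 and 2.32 on the log2 scale. Of 18 tested in CD8 T cells, 4 rose and 2 fell in WT grafts, and 4 rose and 3 fell in Rnls mutant grafts. Foxo1, known to drive Klf2, Il7r and Ccr7 in resting T cells, fell there by 0.69 and 0.49 on the log2 scale.

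Among 15 migration and egress receptors tested in CD4 T cells, 4 rose and none fell in WT grafts, among them the chemokine receptor Cxcr4 by 1.88. In Rnls mutant grafts 7 rose and 2 fell, with the integrin chain Itga4 up by 1.08, the oxysterol receptor Gpr183 up by 0.79, and Cxcr6 and S1pr4 down by 0.73 and 0.81 on the log2 scale. Of 14 in CD8 T cells, 1 rose and 1 fell in WT grafts, and 3 rose and 3 fell in Rnls mutant grafts, where the integrin chain Itgal rose by 0.75. Of the tissue retention genes, 2 of 10 rose and 2 fell in WT CD4 T cells, and 2 rose and 3 fell in Rnls mutant CD4 T cells. Among 9 in CD8 T cells, 3 rose and 2 fell in WT grafts and 1 rose and 3 fell in Rnls mutant grafts. Cd69, whose product binds S1PR1 and holds it off the cell surface, rose in all 4 comparisons, by 1.70 and 0.95 in WT and Rnls mutant CD4 T cells and by 1.14 and 1.24 in CD8 T cells. Runx3, a factor of tissue-resident cells, fell by 0.72 and 0.57 in CD4 T cells on the log2 scale.

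Of 22 effector and exhaustion genes tested in CD4 T cells, 2 rose and 4 fell in WT grafts and 2 rose and 6 fell in Rnls mutant grafts, and of 22 in CD8 T cells 4 rose and 4 fell, and 3 rose and 3 fell. Their median log2 changes were -0.12 and -0.24 in CD4 and 0.04 and -0.13 in CD8 T cells, and the 2 that rose among 22 in CD4 T cells were no larger a share than among all genes. The granzyme gene Gzma fell in all 4 comparisons, by 1.89 and 2.80 in CD4 and by 1.57 and 2.03 in CD8 T cells on the log2 scale, and the checkpoint gene Ctla4 rose in all 4, by 1.33, 0.98, 1.39 and 0.91. Of 10 genes of interleukin 7 receptor partners and signaling, 3 rose in WT CD4 T cells and 3 rose and 1 fell in Rnls mutant CD4 T cells, against 1 up and 2 down and 0 up and 1 down in CD8 T cells. Fyn, an adaptor kinase of SLAM receptors, rose in all 4 comparisons by 0.47 to 0.62, within a list of 8 tested of which at most 2 rose and 1 fell. Among 6 partners of TCF and LEF proteins, Ctnnb1, which encodes beta-catenin, rose by 0.56 in WT CD4 T cells and no other was called in any of the 4. Between genotypes and in the difference between the 2 changes, none of these lists had a call in CD4 or CD8 T cells.

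The genes whose levels ran closest to each member over 26 clusters of at least 50 cells were sought among 6005 genes by Pearson correlation of log2(CPM + 10), a description over clusters that share libraries. Lef1 ran with Cd3g (r = 0.977), Faah (0.977) and Icos (0.973), and S1pr1 with Trac (0.970), Cd3e (0.968) and BE692007 (0.968). Slamf6 ran with Ptpn13 (0.937), S1pr1 (0.932) and Cd5 (0.931), and Tcf7 with Camk2n1 (0.912), Farp1 (0.908) and Fgf13 (0.896). Ccr7 was closest to Tmem123 (0.860), Tmem39a (0.840) and Pcgf5 (0.817), and Il7r to Inf2 (0.840), BC031181 (0.801) and Il21r (0.769). Klf2 had immediate early genes among its 3, with Egr1 (0.849), Pik3c2a (0.804) and Dusp1 (0.803).

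Within single CD4 T cells thinned to 1000 UMIs, shares of co-detection were higher among cells with the second gene for these pairs. Tcf7 was detected in 12.7% of the 520 cells with a Slamf6 UMI and in 7.78% of the 4356 without, and in 11.6% of cells with and 6.20% of cells without an Il7r UMI. Klf2 was detected in 25.2% of the 1303 cells with S1pr1 and in 14.8% of the 3573 without. Among CD8 T cells the Tcf7 shares were 6.32% with and 5.72% without Slamf6, and 8.94% with and 4.42% without Il7r. The Klf2 shares were 17.4% with and 12.9% without S1pr1. For Klf2 the shares with and without Ccr7 were 23.5% and 17.3% in CD4 and 10.7% and 13.9% in CD8 T cells. These shares pool cells of all groups. By group, Tcf7 was in 7.83% of WT day 10 CD8 T cells with and 4.91% without Slamf6. Rnls mutant day 17 gave 12.1% and 9.57%. The order was reversed in WT day 17, at 5.56% and 9.40%, and in Rnls mutant day 10, at 2.91% and 5.05%. None of the shares carries a test.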

How the data were processed

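The authors made 10x Genomics 3' gene expression libraries with hashtag oligos from sorted CD45+ cells. Per the labels' processing notes, Cell Ranger and mm10 were used, with versions not given in the sources used here. The authors deposited UMI counts, not normalized, for every gene in every cell, with cell annotations from which the graft, the cell type and the cluster of each cell were taken. The filters that made these tables are not given in the sources used here. In the files the lowest count per cell was 1001 UMIs, the median 3520 and the highest mitochondrial share 9.74%, and 42 of 22399 distinct barcodes occurred in more than 1 library.

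UMIs were summed per graft and cell type (at least 10 cells) and tested with edgeR 4.0.16 in R 4.3.3: TMM scaling, filterByExpr, and 1 quasi-likelihood fit per cell type over all groups, with 5 contrasts and Benjamini-Hochberg adjustment over all genes tested at 0.05. Grafts were the replicates. Labels do not say that each was a separate animal, so p-values measure the spread between these grafts. The script was tested on simulated data. Alternatives were DESeq2 1.42.0, no TMM, no filter on low counts, at least 20 cells, only the groups compared, a replicate block, fits without the 6% of cells with the highest Scrublet scores (its own threshold marked 1 cell of 22441, so it had not worked), and each graft left out. Leaving out cells with a UMI of the other coreceptor lineage or of a macrophage gene was chosen after the data were seen. Fixed cluster shares, thinned cells (1000 UMIs, scanpy 1.11.5), lists, motifs and correlations carry no test. The 7 genes and all lists were chosen with earlier results of these data known. Besides them, genes were named as at most 3 per list, direction, comparison and cell type with the smallest p among those called, the 3 best correlated per member, and the defining markers. Counting error is not the only error in a share or level.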

Additional observations from a re-analysis of the deposited data

Results flagged for a closer look

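Of 92 groups of 4 grafts examined, 3 held a graft far from the other 3 by Dixon's criterion, and chance would flag about 1 in 20 groups. Slamf6 in CD8 T cells was at 62.0 CPM (UMIs per 1000000 UMIs) in WT day 17 graft 3, against 121, 130 and 130 in the other grafts of its group. That graft held 18 CD8 T cells, of which 55.6% carried a UMI of Cd4 or Cd40lg. Slamf6 in CD8 T cells was at 125 in Rnls mutant day 10 graft 1, against 75.4, 77.7 and 78.1. Il7r in regulatory T cells was at 653 in WT day 10 graft 2, against 486, 490 and 491.

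The change of Klf2 in regulatory T cells from day 10 to day 17 differed between genotypes in a test of the difference itself, by -1.93 on the log2 scale (edgeR, SE 0.44, adjusted p = 0.026). The value ranged from -2.33 to -1.45 over 14 fits that each left out 1 graft, of which 9 kept the call, and its adjusted p over 7 other settings ranged from 0.0012 to 0.078, the highest with the replicate block. In the same cells the mean summed level of 6 cycling cell markers went from 291 to 88.7 CPM in WT and from 62.7 to 433 in Rnls mutant grafts, and that of 10 macrophage and monocyte markers from 556 to 818 and from 454 to 1475. Their part in the result was not tested.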

How the results depend on the processing

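No member changed direction where it had passed the test, under any alternative run. Numbers of the 7 genes called were as follows where they moved by over 1.5 times. In CD4 T cells, WT grafts over time gave 3, and 5 with no filter on low counts and 6 without TMM. Rnls mutant against WT at day 10 gave 0 in CD4 T cells and 1 with DESeq2, no filter, only the groups compared, the replicate block or no TMM. At day 17 it gave 0 and 1 with no filter, and the difference between the changes 0 and 2 with no filter. Among CD8 T cells, Rnls mutant grafts over time gave 4 and 0 without cells with a macrophage UMI. Rnls mutant against WT at day 10 gave 0 in CD8 T cells and 1 with DESeq2, at least 20 cells, no filter, only the groups compared, the replicate block, no TMM, or without cells with a macrophage or other coreceptor UMI. The difference between the changes gave 0, and 1 with no filter, the replicate block or without other coreceptor cells. Over all 5 comparisons, regulatory T cells gave 2, 1 with DESeq2 and 4 with no filter, NK cells 2 and 6 with no filter, and dendritic cells 3, 6 with no filter and 5 without the highest Scrublet scores. Within CD4 clusters the count was 0, 2 with no filter and 1 with only the groups compared, and within CD8 clusters 3, 5 with no filter and 6 with only the groups compared or no TMM. The cause was not tested.

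With 1 graft left out at a time, the counts ranged from 1 to 7 (WT) and 3 to 6 (Rnls mutant) over time and 0 to 1 between genotypes at day 10 in CD4 T cells, and 0 to 0 at day 17 and for the difference. In CD8 T cells they ranged from 1 to 3, 1 to 4, 0 to 1 at day 10, 0 to 0 at day 17 and 0 to 1 for the difference. Ranges were 0 to 5 in regulatory T cells, 1 to 3 in NK cells, 2 to 3 in dendritic cells, 0 to 1 within CD4 clusters and 2 to 6 within CD8 clusters. Grafts of the same number in the 2 genotypes correlated at -0.00408 to 0.287 in their deviations from group means, not all over 0.1. Grafts of different numbers correlated at -0.183 to 0.149. At day 17 alone, grafts of the same number correlated at 0.0134 to 0.127 and grafts of different numbers at -0.136 to 0.0439. Number 1 at day 10 gave the highest values, 0.265 in CD4 and 0.287 in CD8 T cells. WT day 10 graft 4 gave -0.00276 with Rnls mutant graft 4 and 0.142 with graft 3 in CD4 T cells. In the same cells WT day 10 graft 3 gave 0.019 with Rnls mutant graft 3 and 0.134 with graft 4. No source used here ties a number to a mouse, so the numbers were not taken to pair the grafts. With the replicate block 3 and 5 genes were called over time in CD4 and 3 and 4 in CD8 T cells. Without TMM the median log2 change of all genes went from 0.03 to 0.20 in WT and from -0.00 to 0.09 in Rnls mutant CD4 T cells, and from 0.02 to 0.17 and from 0.01 to 0.09 in CD8 T cells. The share of calls that were higher went from 51.1% to 76.7%, 53.7% to 70.5%, 46.1% to 72.2% and 56.4% to 72.3%. Fits with at least 20 cells were not possible for some comparisons of regulatory T cells and of CD4 cluster 8. Low counts limit Ccr7 and Tcf7, and day 17 CD8 T cells of WT grafts, with 18 to 81 cells per graft.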
